A study of Mus musculus with 3 samples.

Results

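The expression of 10 genes of the Notch, neuregulin and BMP10 signals that shape the trabeculae of the heart was examined in RNA-seq data of C57BL/6 mouse heart ventricle. The genes were Nrg1, Erbb2, Erbb3, Erbb4, Notch1, Dll4, Jag1, Hey1, Hey2 and Bmp10. They were taken by gene name from the deposited transcript annotation, and each of the 10 names led to a single locus among the 48626 loci with expression values. Total RNA had been sequenced with a stranded total RNA kit at 3 stages, namely embryos of E10.5 and of E13.5, where E stands for embryonic day, and adults of 8 weeks. No treatment, transgene or mutation is given for any stage. The labels do not say how many hearts went into a library.

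Trabeculae are the muscular ridges that grow from the inner wall of the embryonic ventricle towards its lumen, while the outer wall becomes the compact myocardium. The inner lining, the endocardium, carries the Notch receptor and its ligands and releases neuregulin, which the myocardium receives through ERBB receptors. BMP10 comes from the trabecular myocardium itself and keeps it proliferating, and the HEY factors are transcription factors that Notch switches on in several cell types of the heart.

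The values are FPKM, fragment numbers divided by the exon length of the locus and by the size of the library, with 1 library per stage. Differences between stages can therefore not be set against a replicate spread, and no p-values were computed. A change is the difference of log2(FPKM + 1) between 2 libraries, which understates the change of a low gene, and a gene is called higher or lower where this difference is 1 or more. It is always the later minus the earlier stage. Where 3 values of a gene or ratio stand together, they are those of E10.5, E13.5 and the adult, in that order. As background, the same limit was applied to the 12569 mRNA loci that reached 1 FPKM in at least 1 library, and all 10 genes were among them. Because whole ventricle was sequenced, fewer cells of a type and less RNA per cell cannot be told apart.

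The libraries differed in ways that touch every gene. Over the 12569 mRNA loci the median change was 0.17 from E10.5 to E13.5, -0.50 between E13.5 and adult and -0.40 between E10.5 and adult. From the smallest steps of the values, 1 FPKM over 1 kb of exon was estimated at about 13.8, 26.7 and 13.8 fragments in the 3 libraries. The median of the cardiomyocyte markers, of which Tnnt2 was the highest in the adult, was 441, 887 and 1173 FPKM. The median of the endothelial markers was 47.3, 34.6 and 47.7 FPKM. Of the 4 atrial markers, the highest at E10.5 was Myl7, at 2453, 1935 and 0.719 FPKM.

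From E10.5 to E13.5, 4 of the 10 genes were lower by the limit, Nrg1, Erbb4, Notch1 and Bmp10, against 4.85% of the mRNA loci. None of the 10 was higher, against 5.89%. Between E13.5 and adult 6 genes were lower, Nrg1, Erbb2, Jag1, Hey1, Hey2 and Bmp10, against 32.1%, and Dll4 alone was higher, against 13.0%. Between E10.5 and adult 8 were lower, against 27.3%, none was higher, against 14.8%, and Erbb3 and Dll4 passed in neither direction. The median change of the 10 genes was -0.58, -1.21 and -1.90 in these 3 comparisons. The comparisons share libraries and are not independent of each other. With the limit at 2, none of the 10 was lower from E10.5 to E13.5 (background 0.247%), Erbb2, Hey2 and Bmp10 were lower between E13.5 and adult (9.88%), and Nrg1, Erbb2, Erbb4, Hey2 and Bmp10 were lower between E10.5 and adult (8.10%). None was higher by 2 in any comparison, where the backgrounds were 0.851%, 4.41% and 5.59%. Under median-of-ratios scaling of the libraries, with the limit of 1, the background between E13.5 and adult became 20.9% higher and 18.9% lower, and that between E10.5 and adult 20.2% higher and 18.4% lower. Among the 10 genes that scaling gave 5 lower from E10.5 to E13.5, against 6.28%, 1 higher and 5 lower between E13.5 and adult, and 7 lower between E10.5 and adult. Scaling without globin and mitochondrial loci gave the same counts, and the background lower from E10.5 to E13.5 was then 10.1%.

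**Figure D1:**
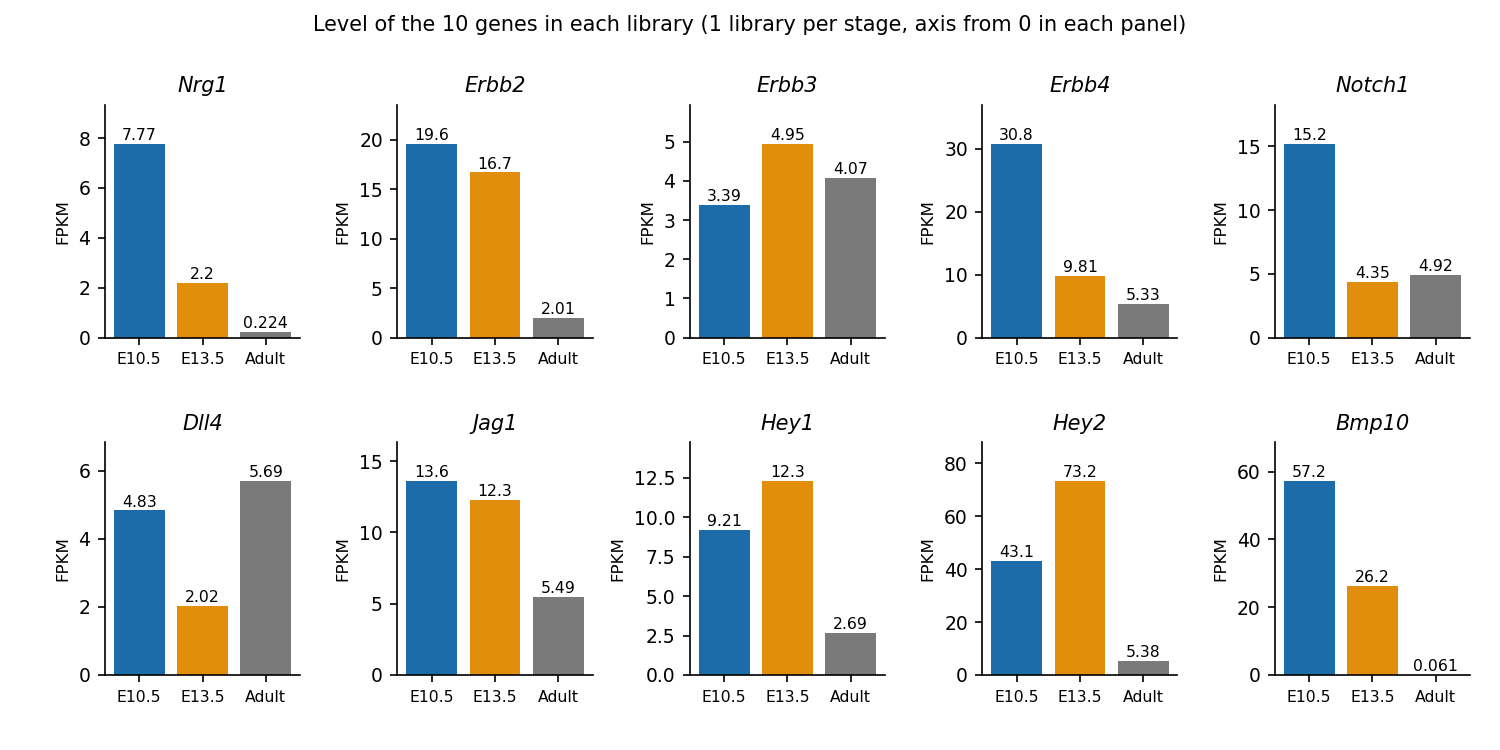
FPKM of each of the 10 genes in the 3 libraries, with 1 panel per gene and 1 bar per library on a linear axis that starts at 0 and has its own range in each panel, without error bars because each stage has 1 library. Bmp10 goes from 57.2 and 26.2 FPKM in the embryonic libraries to 0.0610 in the adult, while Erbb3 stays between 3.39 and 4.95 FPKM.

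The order of the 10 genes by level differed between the stages. At E10.5 Bmp10 was the highest with 57.2 FPKM, followed by Hey2 with 43.1 and Erbb4 with 30.8, and Erbb3 was the lowest with 3.39. At E13.5 Hey2 led with 73.2 FPKM, Bmp10 was next with 26.2, and Dll4 was the lowest with 2.02. In the adult Dll4 led with 5.69 FPKM, and Jag1 with 5.49, Hey2 with 5.38 and Erbb4 with 5.33 lay close below it. With 1 library per stage, the order of such close neighbours has no measured spread to be judged by. In the adult 8 of the 10 genes lay between 2.01 and 5.69 FPKM, and Nrg1 and Bmp10 lay far below.

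Nrg1 encodes neuregulin 1, the growth factor that the endocardium sends to the myocardium. It was at 7.77, 2.20 and 0.224 FPKM. The change was -1.45 between the embryonic libraries, -1.39 between E13.5 and adult and -2.84 between E10.5 and adult. Relative to loci of like length the change between E13.5 and adult was -0.96, inside the limit. On the FPKM scale the E13.5 level was 28.4% and the adult level 2.88% of the level at E10.5. Each library was thus lower than the one of the stage before it, and the adult value rests on only about 6.50 to 16.9 fragments, depending on which of the assembled transcripts gave them. Relative to the median of the endothelial markers of the same library, a ratio that no rescaling of libraries changes, Nrg1 was at 0.164, 0.0636 and 0.00470.

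The Nrg1 locus lies on chromosome 8 from 31814904 to 32009517 on the minus strand of GRCm38 and holds 3 assembled transcripts with 3 separate starts. The transcript that matches a RefSeq transcript starts at 31918203 and has 9 exons. A 12-exon transcript starts at 32009517, 13 bp from a RefSeq start, and a 7-exon transcript starts at 31838140, 188 bp from one. Between the first start and the matched one lie 91314 bp, and this stretch held 21 unspliced loci on the same strand that overlap no Nrg1 exon. They are 203 to 942 nt long and were listed as unmatched to the reference.

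These 21 intronic loci were much higher at E10.5 than in the other libraries. Their median was 6.27, 0.248 and 0 FPKM, and their highest values were 21.1, 1.18 and 1.65 FPKM. At E10.5 20 of them reached 1 FPKM, against 1 in each of the later libraries, and 20 of the 21 were higher at E10.5 than at E13.5. A further unspliced locus that starts 272 bp past the 3′ end of Nrg1 was at 2.99, 0.310 and 0.190 FPKM. Over the whole table, 24.3%, 7.31% and 36.0% of the 22805 unspliced unmatched loci reached 1 FPKM. The adult library therefore had the largest share of such loci in all and the smallest median inside Nrg1, while the E13.5 library had the smallest share in all. The annotation lists no transcripts of the class that lies inside introns of the reference, so the introns of the other genes could not be compared in the same way.

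**Figure D2:**
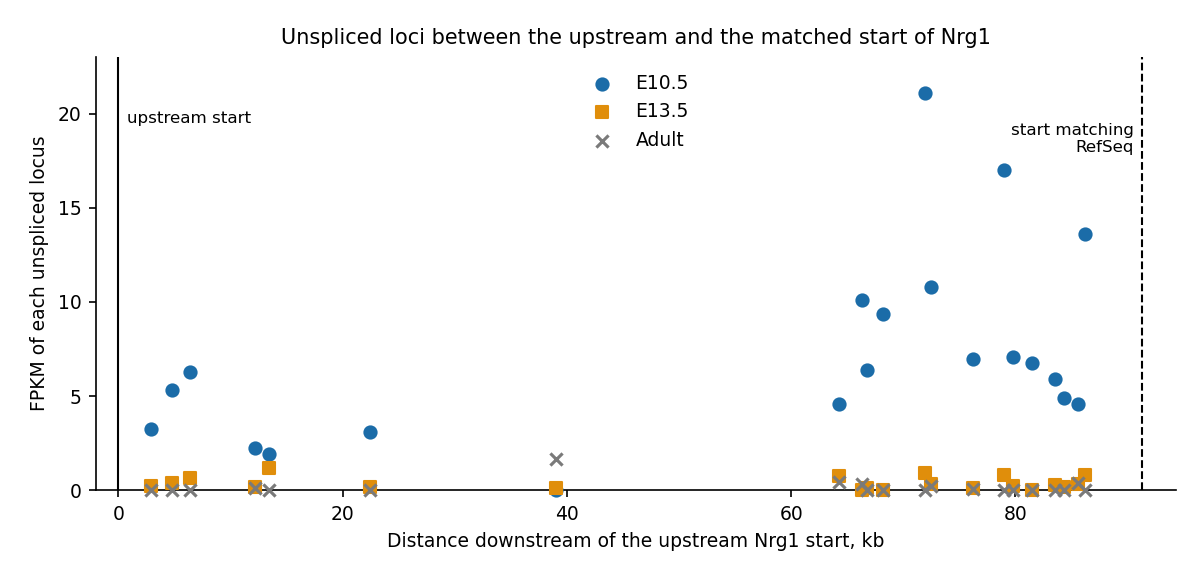
FPKM (linear axis) of the 21 unspliced loci inside the Nrg1 locus against their distance in kb downstream of the upstream Nrg1 start (solid line), with the start that matches RefSeq as a dashed line and a marker per library. The E10.5 circles lie above the E13.5 squares at 20 of the 21 loci, with medians of 6.27 and 0.248 FPKM, and 14 of the adult crosses lie at 0.

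The ERBB receptors are receptor tyrosine kinases that work in pairs. ERBB3 and ERBB4 bind neuregulin, ERBB2 has no ligand of its own and serves as partner, and ERBB2 with ERBB4 is the pair of the cardiomyocyte. Erbb4 was at 30.8, 9.81 and 5.33 FPKM. Erbb2 was at 19.6, 16.7 and 2.01 FPKM. Erbb3 was at 3.39, 4.95 and 4.07 FPKM.

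The receptors thus differed at different steps. Erbb4 was lower by 1.55 on the log2 scale at E13.5 than at E10.5 and its further change to the adult was -0.77, within the limit, and became -0.27 under median-of-ratios scaling and -0.04 without globin and mitochondrial loci. Erbb2 differed little between the embryonic libraries, with a change of -0.22, and its change between E13.5 and adult was -2.56. Between E10.5 and adult the change was -2.33 for Erbb4, -2.78 for Erbb2 and 0.20 for Erbb3. The ratio of Erbb4 to Erbb2 was 1.57, 0.587 and 2.66, so that Erbb2 was the higher of the pair only in the E13.5 library. The ratio of Erbb2 to Erbb3 was 5.77 and 3.38 in the embryonic libraries and 0.494 in the adult.

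Set against the median of the cardiomyocyte markers of the same library, Erbb4 was at 0.0698, 0.0111 and 0.00455. Erbb2 was at 0.0444, 0.0188 and 0.00171 of that median. Both ratios decreased at each step, more steeply than the FPKM values, since the cardiomyocyte median itself was higher at each step. The 6 markers behind that median did not move together. From E10.5 to E13.5, 2 were higher by the limit and 1 lower, against 5.89% and 4.85% of the mRNA loci. Between E13.5 and adult these counts were again 2 and 1, against 13.0% and 32.1%. The lower ones were, in that order, Ryr2 at 73.1, 18.8 and 281 FPKM and Nkx2-5 at 46.8, 61.1 and 9.37 FPKM. Both were named after their values were seen.

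The change of Erbb3 stayed within the limit in all 3 comparisons under every setting tried. Its direction between E13.5 and adult, -0.23 as deposited, became 0.23 and 0.46 under the other scalings of the libraries and 0.19 relative to loci of like length. ERBB3 is also known from glial cells and from the cushions of the heart valves. Of the Schwann and neural crest markers, Sox10, a defining factor of these cells that was named after its values were seen, was at 0.0532, 0.253 and 0.137 FPKM, and S100b and Foxd3 were listed at 0 at E10.5. The part of such cells in the Erbb3 level was not tested. The loci whose pattern over the 3 libraries was nearest to that of Erbb3, among 12238 single-gene mRNA loci, were C87436 at 3.65, 5.29 and 4.40 FPKM, P4ha1 at 18.4, 25.5 and 21.7 FPKM, and Enho at 2.91, 4.33 and 3.58 FPKM. They lay at distances of 0.01, 0.01 and 0.02 on the log2 scale.

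Erbb4 spans 1077593 bp of chromosome 1 (68030467 to 69108059, minus strand), the longest of the 10 loci. Of its 3 assembled transcripts 1 began at the RefSeq start, and 2 began inside the gene at 68298941, which is 809118 bp from that start. An unspliced locus 124 bp past its 3′ end was at 2.24, 0.123 and 0.109 FPKM. Erbb3 lies on chromosome 10 (128567535 to 128589623, minus strand) with 6 transcripts. Erbb2 lies on chromosome 11 (98412484 to 98440063, plus strand) with 7 transcripts. It overlaps 1810046J19Rik on the other strand over 1281 bp, of which 744 bp are exonic in both, and that locus was at 31.9, 43.1 and 18.3 FPKM. Whether the counting used the strand is not stated in the sources used here, so the Erbb2 values are uncertain to that extent.

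Notch1 encodes the receptor of the endocardium and of the vascular endothelium. It was at 15.2, 4.35 and 4.92 FPKM. The change between the embryonic libraries was -1.60, and that between E13.5 and adult was 0.14. The E10.5 library thus stood above the other two. The locus on chromosome 2 (26457902 to 26503822, minus strand) held a single transcript of 34 exons and 9489 nt.

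Dll4 encodes the Notch ligand of arterial and endocardial endothelium. It was at 4.83, 2.02 and 5.69 FPKM. Both outer libraries were above E13.5, with changes of -0.95 into E13.5 and 1.15 out of it, and the change between E10.5 and adult was 0.20. The change into E13.5 lies just inside the limit, and Dll4 passed it under median-of-ratios scaling with -1.03 and under the scaling without globin and mitochondrial loci with -1.22. Dll4 lies on chromosome 2 from 119325770 to 119335920 on the plus strand. Its start is 427 bp from that of Gm14207 on the other strand, the exons overlap over 217 bp, and Gm14207 was at 0.267, 0.700 and 0.911 FPKM.

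Jag1 encodes a Notch ligand found in both the endothelium and the myocardium of the embryonic heart and in smooth muscle. It was at 13.6, 12.3 and 5.49 FPKM. The change was -0.14 between the embryonic libraries and -1.03 between E13.5 and adult. The embryonic libraries were near each other and the adult was lower, but the last change became -0.53 under median-of-ratios scaling and -0.29 without globin and mitochondrial loci, inside the limit. Jag1 also lies on chromosome 2, from 137081451 to 137116827 on the minus strand, with a second assembled start 307 bp from the RefSeq start.

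The balance of the ligands differed between stages. The ratio of Dll4 to Jag1 was 0.355, 0.165 and 1.04. Jag1 was the higher ligand in both embryonic libraries, and the pair was near equal in the adult. The ratio of Notch1 to Dll4 was 3.14, 2.15 and 0.864.

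Some markers of endothelial cells differed in the same steps as Dll4, and in the first step as Notch1. Of the 8 endothelial markers 3 were lower by the limit at E13.5 than at E10.5 and 0 were higher, against 4.85% and 5.89% of the mRNA loci. In the adult 3 were higher than at E13.5 and 0 were lower, against 13.0% and 32.1%. In both steps the 3 were Cdh5 at 50.2, 12.9 and 47.2 FPKM, Kdr at 48.1, 20.3 and 61.9 FPKM and Flt1 at 18.7, 8.62 and 32.7 FPKM. They were named after their values were seen. The other 5 stayed within the limit in both steps, with changes of 0.03 for Pecam1, -0.09 for Tie1, -0.20 for Tek, -0.10 for Emcn and 0.26 for Egfl7 from E10.5 to E13.5. Between E13.5 and adult these were 0.60, -0.60, -0.67, -0.14 and -0.53. The summed level of the list was 367, 293 and 365 FPKM. Relative to the endothelial median, Notch1 was at 0.320, 0.126 and 0.103 and Dll4 at 0.102, 0.0584 and 0.119. Both ratios to this median were lower at E13.5 than at E10.5. The median mixes the 3 lower markers with the 5 that stayed within the limit, and ratios to single markers would differ. The part of endothelial content in these differences was not tested.

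Transcript length moved with the same comparison. The median change from E10.5 to E13.5 was 0.49 for mRNA loci whose longest transcript was up to 2 kb, 0.28 for 2 to 4 kb, 0.08 for 4 to 6 kb and -0.20 for over 6 kb. Lower by the limit were 38 of 2387, 84 of 4201, 128 of 2842 and 359 of 3139 loci of these classes. Erbb2, Erbb4 and Notch1 belong to the longest class, and Nrg1, Erbb3, Jag1 and Bmp10 to the next.

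Set against the median of loci of their own class, the lower genes remained past the limit. The change from E10.5 to E13.5 minus the class median was -1.53 for Nrg1, -1.39 for Notch1, -1.35 for Erbb4 and -1.18 for Bmp10. Dll4 joined them with -1.23. Hey2 with 0.47, Erbb3 with 0.36 and Hey1 with 0.10 stayed above their class medians, and Jag1 with -0.22 and Erbb2 with -0.02 stayed within the limit. Of all mRNA loci, 5.20% were lower and 3.49% higher by the limit after the same subtraction. Subtracting a median leaves the spread of changes within a class as it was. This comparison by length was added after the data had been seen.

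**Figure D3:**
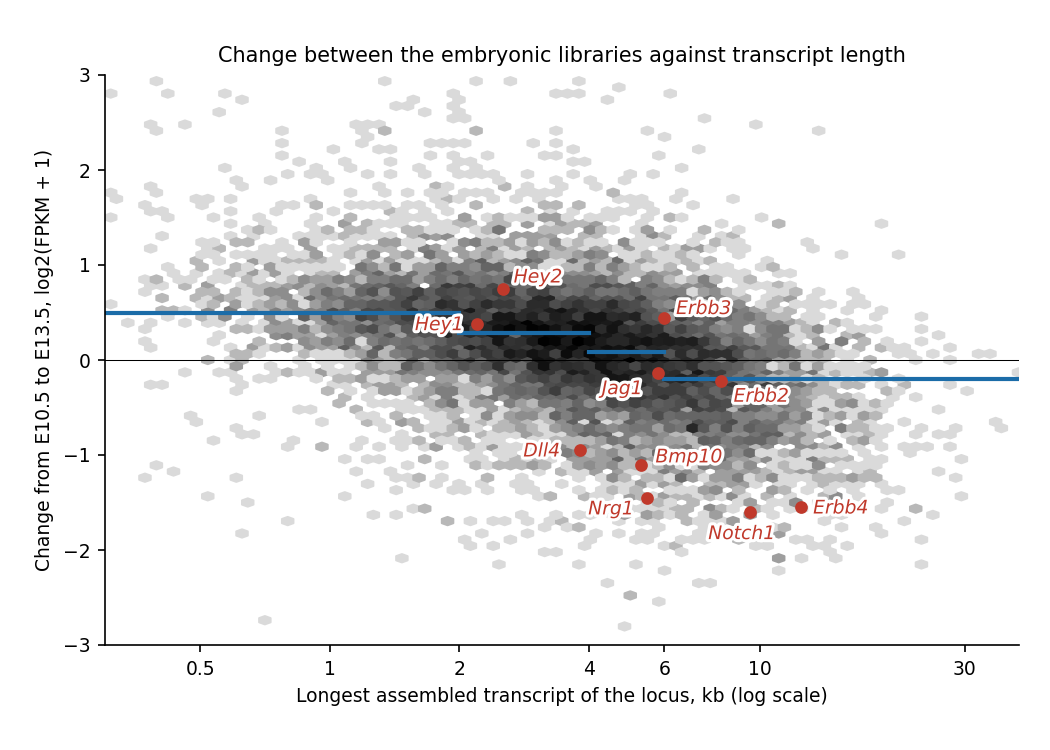
Change from E10.5 to E13.5 on the log2(FPKM + 1) scale against the length of the longest assembled transcript in kb (log axis) for the mRNA loci (grey hexagons, darker for more loci, with 42 loci outside the plotted range) and the 10 genes (red points), with blue bars at the medians of the 4 length classes. The medians go from 0.49 in the shortest class to -0.20 in the longest, and Nrg1, Notch1, Erbb4, Bmp10 and Dll4 lie more than 1 below the bar of their class.

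HEY1 and HEY2 are repressors of the basic helix-loop-helix class. HEY2 is a factor of the compact ventricular wall, and HEY1 is found in endocardium, atria and vessels. Hey2 was at 43.1, 73.2 and 5.38 FPKM. Hey1 was at 9.21, 12.3 and 2.69 FPKM.

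Both were higher at E13.5 than at E10.5 in FPKM, by less than the limit. In the same step Notch1 was lower by the limit, and the change of Dll4, -0.95, lay just inside it. The changes were 0.75 for Hey2 and 0.38 for Hey1. That of Hey1 was 0.24 under median-of-ratios scaling and 0.00 without globin and mitochondrial loci, so its direction was not kept under all scalings, while that of Hey2 stayed above 0 with 0.60 and 0.34. Between E13.5 and adult the change was -3.54 for Hey2 and -1.85 for Hey1, and the adult Hey2 level was 7.35% of that at E13.5. The ratio of Hey1 to Hey2 was 0.214, 0.168 and 0.499. Relative to the cardiomyocyte median Hey2 was at 0.0977 and 0.0826 in the embryonic libraries and at 0.00459 in the adult.

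Hey2 lies on chromosome 10 from 30832359 to 30842783 on the minus strand and its assembled start coincides with the RefSeq start. An unspliced locus on the other strand begins 649 bp from that start and was at 0.738, 0.930 and 0.197 FPKM. Promoter sequences from RefSeq (GRCm38.p6, 250 bases before to 50 after the start) were at hand for 7 of the 10 genes, all but Nrg1, Erbb3 and Hey1. They were searched on both strands for the letters CGTGGGAA, a binding sequence of RBPJ, the DNA-binding partner of the cut Notch receptor. Hey2 was the only one of the 7 with these letters and holds them at 2 places, at position -5 from the start on the gene's own strand and at -207 on the other strand. Of 32851 promoters in the table, 241 (0.734%) hold the letters at least once and 4 (0.0122%) hold them 2 or more times. The Hey2 stretch is shown because it carries both matches, in capitals, read 5′ to 3′ on the minus strand at chr10:30842774-30843033. A match of letters describes the sequence and is no evidence of binding.
Hey2: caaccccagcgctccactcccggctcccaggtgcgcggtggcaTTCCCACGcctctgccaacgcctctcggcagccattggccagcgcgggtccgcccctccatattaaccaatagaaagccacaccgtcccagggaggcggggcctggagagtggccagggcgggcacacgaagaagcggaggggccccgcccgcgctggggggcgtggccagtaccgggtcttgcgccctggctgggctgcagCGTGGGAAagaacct

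Hey1 lies on chromosome 3 from 8663359 to 8667038 on the minus strand, with a single transcript of 5 exons and 2205 nt that begins at the RefSeq start. Its level in the adult rests on about 81.8 fragments.

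Bmp10, a growth factor of the trabecular myocardium of the embryo that is restricted to the atria later in life, had the widest range of the 10 genes. It was at 57.2, 26.2 and 0.0610 FPKM. The change was -1.10 between the embryonic libraries, -4.68 between E13.5 and adult and -5.78 between E10.5 and adult. Among the mRNA loci its level was at percentile 91.7, 76.5 and 1.49. The adult value corresponds to about 1.11 to 4.45 fragments, so Bmp10 was near the limit of detection there and no fold is given. The changes into the adult, which depend on the pseudocount at such a level, were -7.35 and -8.48 with a pseudocount of 0.1.

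Bmp10 and Nrg1 were both lower at each step but not in parallel. The ratio of Bmp10 to Nrg1 was 7.37, 11.9 and 0.272, the last from few fragments of either gene. Relative to the cardiomyocyte median, Bmp10 was at 0.130, 0.0295 and 0.0000520. The 4 atrial markers had a summed level of 6382, 6766 and 40.9 FPKM, and none of them was at 0. All 4 were, like Bmp10, lower by the limit between E13.5 and adult, against 32.1% of the mRNA loci. From E10.5 to E13.5, where Bmp10 was lower, their changes were -0.34 for Myl7, 0.17 for Myl4, 0.45 for Nppa and -1.46 for Sln. Of these, Myl7, Myl4 and Nppa are also expressed in the embryonic ventricle. Myl4 was at 2164, 2440 and 1.42 FPKM and Sln at 21.3, 7.11 and 0.898 FPKM, both named after their values were seen. The part of atrial tissue in the Bmp10 levels was not tested.

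The loci with the pattern nearest to Bmp10 lay farther away than those of Erbb3. They were Hist1h4i, a histone H4 gene, at 82.2, 45.4 and 0.633 FPKM (distance 0.30), Igf2bp1, an RNA-binding protein of the embryo, at 49.8, 19.2 and 0.0485 FPKM (0.48), and Col18a1, a basement membrane collagen, at 93.0, 50.1 and 1.74 FPKM (0.51).

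Bmp10 lies on chromosome 6 from 87428952 to 87438437 on the plus strand, with 2 transcripts of 2 exons and of 1317 and 5292 nt. The longer one starts 42 bp upstream of the RefSeq start. The letters AGATAA, a binding sequence of GATA factors, occur at positions -219 and -33 from the RefSeq start. They occur at least once in 11.2% and 2 or more times in 1.14% of the 32851 promoters, and in none of the other 6 genes searched. The letters TNAAGTG, a binding sequence of NKX2-5, occur in 11.5% of promoters and in none of the 7. The GATA match at -33 lies after the assembled start, inside the longer transcript. The stretch upstream of the RefSeq start of Bmp10 is shown because it holds both GATA matches, in capitals, read 5′ to 3′ on the plus strand at chr6:87428744-87428993.
Bmp10: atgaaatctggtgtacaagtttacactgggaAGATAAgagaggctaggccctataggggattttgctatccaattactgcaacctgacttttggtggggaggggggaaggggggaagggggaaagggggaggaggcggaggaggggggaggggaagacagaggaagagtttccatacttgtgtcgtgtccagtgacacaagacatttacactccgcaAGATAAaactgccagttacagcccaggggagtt

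**Figure D4:**
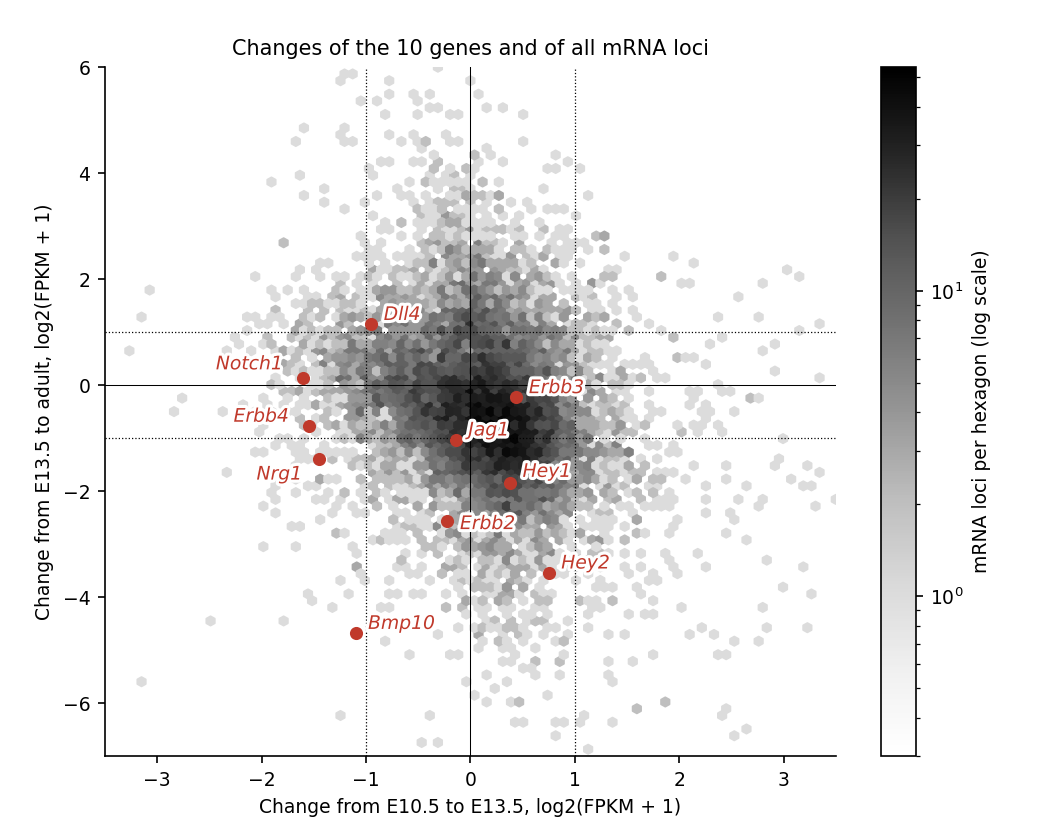
Change between E13.5 and adult against change from E10.5 to E13.5, both on the log2(FPKM + 1) scale, for the mRNA loci (grey hexagons, darker for more loci, with 56 loci outside the plotted range) and the 10 genes (red points), with dotted lines at the limit of 1. The E13.5 library enters both axes, Bmp10 and Nrg1 lie past the limit in both steps towards lower values, and Dll4 is the only gene of the 10 past the limit towards higher adult values.

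The other genes of these pathways were taken as 9 lists of 84 genes, of which 74 reached 1 FPKM in at least 1 library. As deposited, the counts and medians of the lists cover these 74. Under either other scaling, the list of Notch modification and cleavage counted 15 genes instead of 14. Psenen then reached 1 FPKM, with changes within the limit. From E10.5 to E13.5, 5 of them were higher and 9 lower by the limit, against 5.89% and 4.85% of the mRNA loci. Between E13.5 and adult 3 were higher and 23 lower, against 13.0% and 32.1%. Between E10.5 and adult 6 were higher and 25 lower, against 14.8% and 27.3%. These last shares are also the ones beside which the counts of each list between E10.5 and adult are to be read, and they became 20.2% and 18.4% under median-of-ratios scaling and 20.6% and 18.5% without globin and mitochondrial loci. The median change between E10.5 and adult was -0.62, beside -0.40 for all mRNA loci. The calls into the adult depend on the scaling of the libraries. Between E13.5 and adult the other scalings gave 13 and 17 higher and 15 and 13 lower, and between E10.5 and adult either gave 15 lower.

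The remaining Notch receptors and ligands differed less between the embryonic libraries than Notch1 did. Of 5 such genes among 6 none was past the limit between the embryonic libraries, against 5.89% of the mRNA loci higher and 4.85% lower. For 5 genes this lies near those shares. None passed it between E13.5 and adult, against 13.0% and 32.1%, and 1 was lower between E10.5 and adult, against 27.3%. That was Dll1, a Notch ligand, at 4.86, 2.82 and 1.51 FPKM, whose change of -1.22 became -0.94 and -0.96 under the other scalings. Notch2, the highest of the list at E10.5, was at 8.42, 6.71 and 7.28 FPKM, and Notch3, the receptor of mural cells, at 4.16, 3.33 and 5.73 FPKM. The change of Notch3 between E13.5 and adult, 0.64, became 1.10 and 1.32 under the other scalings, past the limit. Jag2, another ligand, was at 1.43, 1.91 and 3.06 FPKM, and its change of 0.74 between E10.5 and adult became 1.04 and 1.08 under those scalings. That of Jag2 between E13.5 and adult, 0.48, became 0.89 and 1.08.

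Of 14 such genes among the 15 that modify or cleave Notch, 1 was higher and 3 were lower between E10.5 and adult. Adam10, the protease of the first cut, was at 63.7, 17.2 and 18.6 FPKM and was, like Notch1, lower at E13.5 than at E10.5, with a change of -1.83. Its longest transcript is 11063 nt, in the class whose median change was also below 0. Mib1, the ubiquitin ligase that activates the ligands, was at 39.4, 28.5 and 17.3 FPKM, and Ncstn, a subunit of the gamma-secretase of the last cut, at 28.3, 16.1 and 12.3 FPKM. The change of both between E10.5 and adult, -1.14, became -0.75 or -0.74 under the other scalings, inside the limit, while that of Adam10 stayed past it with -1.33 and -1.32.

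Of 7 among the 8 genes of the Notch nuclear complex and its further targets, 1 was higher and 1 lower between E10.5 and adult. Rbpj was at 8.89, 7.78 and 12.7 FPKM, within the limit in each comparison as deposited, and its change of 0.65 between E13.5 and adult became 1.16 and 1.41 under the other scalings. Maml2, a coactivator, was at 6.11, 2.15 and 2.50 FPKM, and its change between E10.5 and adult, -1.02, became -0.70 and -0.71. Among the targets, Heyl, the third HEY factor and one of mural cells, was the higher gene at 0.671, 2.08 and 3.77 FPKM. Hes1 was at 17.0, 26.1 and 12.5 FPKM, and its change between E10.5 and adult, -0.42, became -0.03 and -0.02 under the other scalings. The 5 mural markers summed to 37.0, 68.1 and 294 FPKM, and none was at 0. Between E10.5 and adult 3 of these markers were higher and 1 lower by the limit, against 14.8% and 27.3% of the mRNA loci. The part of mural cells in the Heyl level was not tested.

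Of the 10 further ERBB ligands and EGFR, 5 reached 1 FPKM in at least 1 library, and between E10.5 and adult 2 were higher and 1 lower. Egf, a ligand of EGFR, was at 0.386 and 0.473 FPKM in the embryonic libraries and at 7.25 in the adult, higher by 2.57 on the log2 scale than at E10.5. Btc, which binds EGFR and ERBB4, was at 0.134, 0.938 and 1.72 FPKM, and Hbegf, which binds the same receptors, at 5.69 FPKM in the first and 8.00 in the last library, with a change of 0.78 from E10.5 to E13.5. Tgfa, a ligand of EGFR, was at 2.46, 1.72 and 0.204 FPKM. In the adult library Egf, Hbegf and Btc were thus each above Nrg1 per length of transcript.

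Of 8 among the 9 adaptors and brakes of ERBB signalling, none was higher and 1 was lower between E10.5 and adult, with a median change of -0.65. Shc1, an adaptor, was the lower one at 19.3, 27.0 and 6.87 FPKM, and its change of -1.37 became -0.99 under either other scaling. Ptpn11, the phosphatase SHP2, was at 30.0, 24.7 and 38.6 FPKM, Sos1 at 13.0, 4.92 and 7.25 FPKM, and Lrig1, a brake on ERBB receptors, at 18.8, 12.2 and 8.99 FPKM.

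Of 16 among the 17 genes of BMP10 receptors and signalling, 1 was higher and 7 were lower between E10.5 and adult, with a median change of -0.83, against 14.8% and 27.3% of the mRNA loci, and 5 were lower under either other scaling. The largest changes were those of targets of BMP signalling. Id2 was at 101, 158 and 5.94 FPKM, Id3 at 57.9, 140 and 10.1 FPKM, and Smad6, an inhibitory SMAD, at 21.4, 38.8 and 0.737 FPKM. All 3 were higher at E13.5 than at E10.5 in FPKM, while Bmp10 was lower. Only the change of Id3 passed the limit, with 1.25, and it became 1.10 and 0.84 under the other scalings. The ID genes also respond to other BMP ligands.

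Of the 10 other regulators of trabeculation, 1 was higher and 5 were lower between E10.5 and adult, against the same shares, and 3 were lower under either other scaling. Vcan, the versican of the cardiac jelly, was at 249, 65.8 and 17.4 FPKM, with changes of -1.90 and -1.86 at the 2 steps. Fkbp1a, whose loss gives excessive trabeculae, was at 198, 65.2 and 40.2 FPKM, and Has2, the hyaluronan synthase of the cardiac jelly, at 16.2, 17.0 and 1.57 FPKM. Vcan and Fkbp1a were past the limit already at E13.5, and Has2 only in the adult, and all 3 stayed past it between E10.5 and adult under those scalings.

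None of the 5 genes of the trabecular list and the 4 of the compact wall growth list was past the limit between the embryonic libraries. Of the mRNA loci 5.89% were higher and 4.85% lower in that step. Between E10.5 and adult 3 trabecular genes were lower, Cited1 at 360, 393 and 0.403 FPKM, Nppa at 1744, 2385 and 37.9 FPKM and Gja5 at 36.7, 71.2 and 2.38 FPKM. In the list of compact wall growth 3 were also lower. These were Cdkn1c at 899, 669 and 7.81 FPKM, Mycn at 17.3, 21.7 and 0.617 FPKM and Tbx20 at 109, 120 and 44.1 FPKM. Cdkn1c encodes an inhibitor of the cell cycle, and its place in that list does not make it a marker of the compact wall. The change of Tbx20, -1.29, became -0.88 and -0.87 under the other scalings, and the other 5 lower genes stayed past the limit. The remaining genes, named after their values were seen, were Nppb and Irx3 of the trabecular list and Prdm16 of the compact wall growth list. Nppb was at 182, 271 and 197 FPKM, Irx3 at 3.59, 6.70 and 1.70 FPKM, and Prdm16 at 2.23, 1.80 and 4.15 FPKM. Their changes between E10.5 and adult were 0.11, -0.77 and 0.67. That of Prdm16 became 1.00 and 1.03 under the other scalings. No gene of either list was lower by the limit at E13.5 than at E10.5 under any of the 3 scalings. Of the mRNA loci 4.85%, 6.28% and 10.1% were, so that for so few genes a count of 0 lies near the background. Bmp10, Nrg1, Erbb4 and Notch1 were lower under all 3 scalings.

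**Figure D5:**
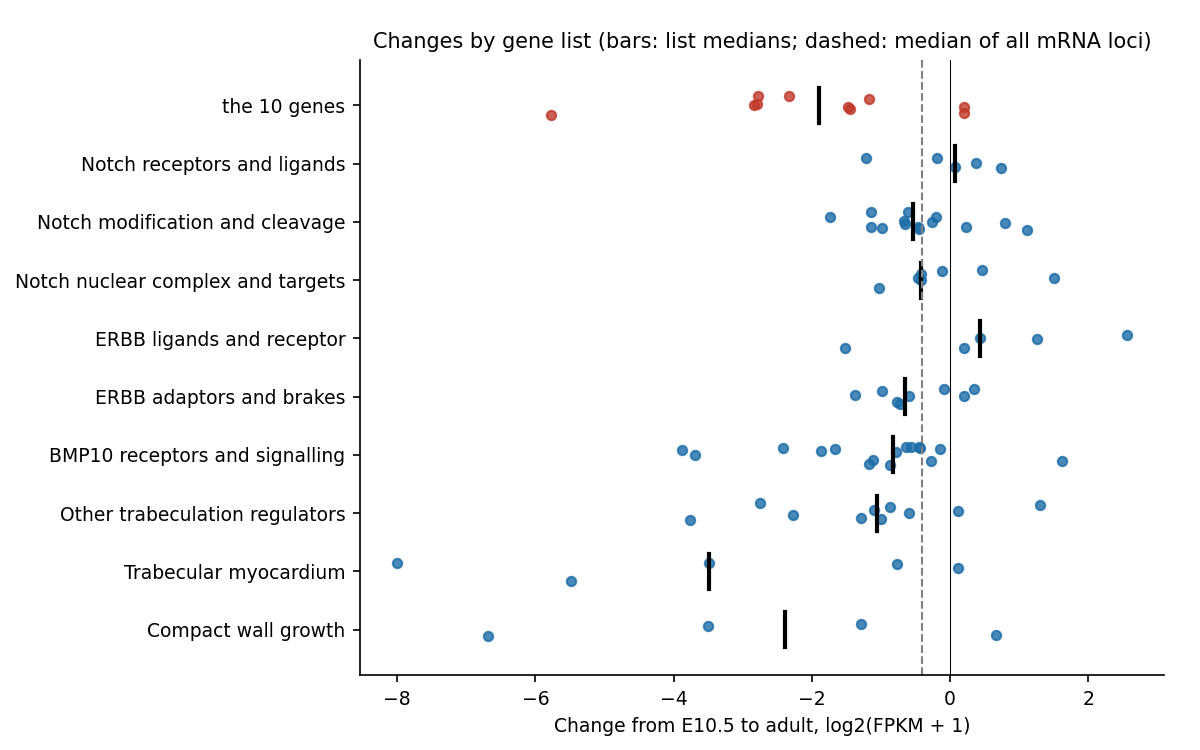
Change from E10.5 to adult on the log2(FPKM + 1) scale for the 10 genes (red) and for the genes of each pathway list that reached 1 FPKM (blue), with 1 point per gene, a black bar at the median and a dashed line at the median of all mRNA loci, -0.40. The 10 genes have a median of -1.90, and the list of further ERBB ligands has 0.43. The lists of trabecular myocardium and of compact wall growth, the latter with Cdkn1c, have -3.48 and -2.39.

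Both endocardial markers were, like Nrg1 and Notch1, lower by the limit between E10.5 and adult, against 27.3% of the mRNA loci. Npr3, the higher of the pair in the embryo, was at 86.1, 50.4 and 1.82 FPKM, and Nfatc1 at 15.6, 4.44 and 3.93 FPKM, with summed levels of 102, 54.9 and 5.75 FPKM. Neither was at 0 in any library. From E10.5 to E13.5 the change was -0.76 for Npr3 and -1.61 for Nfatc1, beside -1.45 for Nrg1 and -1.60 for Notch1. Between E10.5 and adult it was -4.95 for Npr3 and -1.76 for Nfatc1, beside -2.84 and -1.45. The part of endocardial content in these levels was not tested.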

How the data were processed

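Total RNA of C57BL/6 heart ventricle at E10.5, E13.5 and 8 weeks had been sequenced in 1 library per stage. Per the submitters' processing notes, the authors used TopHat and Bowtie on mm10 and assembled transcripts with Cufflinks. The study's methods name TopHat2 and an assembly both with and without UCSC annotation. Other versions and options are not given in the sources used here. The authors deposited FPKM values per merged locus and library, and an annotation of the merged exons, from which coordinates and transcript classes were taken.

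Loci were joined to genes through the gene names of the annotation. The 9 loci without transcripts were not analysed. An mRNA locus held a match to a protein-coding RefSeq transcript (20117 loci, of which 406 join several genes). Changes were differences of log2(FPKM + 1), with no test. The depth estimate comes from the commonest low product of FPKM and length among unspliced loci and is approximate. It covers no variation between hearts.

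The genes and lists were chosen with earlier results of these data known. Beside the 10 genes, each list's highest gene at E10.5 and its 3 largest changes between E10.5 and adult were named, and for Bmp10 and Erbb3 the 3 nearest single-gene loci by Euclidean distance over both steps. Of marker lists the median and the highest gene were named. A further marker gene is not reported here. Alternatives were 2 other scalings, a pseudocount of 0.1, no filter, a limit of 2, single-gene loci, and, added later, subtraction of length-class medians. The counting of changes was tested on simulated data. Python 3.11.15, numpy 2.4.6, pandas 2.3.3 and matplotlib 3.10.9 were used.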

Additional observations from a re-analysis of the deposited data

How the results depend on the processing

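No paired analysis was possible because every stage was sequenced in 1 library only, and for the same reason no library could be left out. Among the counts of the 10 genes, the limit of 2 gave 0 lower from E10.5 to E13.5, 0 higher and 3 lower between E13.5 and adult, and 5 lower between E10.5 and adult, against backgrounds of 0.247%, 4.41%, 9.88% and 8.10%. The other alternatives kept each of these counts within 1.5 times. Among the pathway genes that reached 1 FPKM, median-of-ratios scaling gave 3 higher from E10.5 to E13.5, 13 higher and 15 lower between E13.5 and adult, and 15 lower between E10.5 and adult. Scaling without globin and mitochondrial loci gave 2 higher and 14 lower in the first of these comparisons, 17 higher and 13 lower in the next, and 15 lower in the last. Subtracting the length-class median, chosen after seeing the data, gave 2 higher, 10 higher and 15 lower, and 15 lower in the same comparisons. The background under that subtraction was 3.49% higher, then 20.7% higher and 17.0% lower, then 16.9% lower. A pseudocount of 0.1 gave 5 higher between E13.5 and adult. The split of higher and lower calls into the adult thus depends on the scaling. Without globin and mitochondrial loci the background between E13.5 and adult was 25.8% higher and 14.9% lower. Of 120 alternative changes of the 10 genes, 105 moved by less than 0.585 on the log2 scale and 15 by more, and none that passed the limit turned its direction. With the pseudocount of 0.1 the change between E10.5 and adult was -4.60 for Nrg1 and -8.48 for Bmp10, whose adult levels rest on few fragments. Depth limits both of these adult values.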
